A study of Mus musculus with 27 samples.

Results

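The E10.5 heart (Ca) and the E10.5 forelimb bud (FLB) of the mouse are compared here, as the tissues of the lateral plate mesoderm in which the T-box gene Tbx5 is transcribed. The comparison takes the 3 Ca and the 3 E10.5 FLB libraries, 6 of the 27 RNA-seq libraries of a study that also profiled branchial arch, tail bud, other limb bud stages and limb bud-like tissue grown from embryonic stem cells. Both tissues were cut from embryos of the Slc:ICR strain, an outbred stock, with no mutant allele, transgene or agent in either group. Whole tissues were taken with no cell sorting named, so each library holds every cell type of the piece that was cut, blood included. The methods name 3 embryos for the tissues and do not say whether each library came from 1 embryo or from a pool, so that p-values measure the spread between libraries, which may be technical in part. The question is which genes differ between these tissues, and it can be asked of this pair alone.

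The heart and the limb bud both arise from lateral plate mesoderm. Tbx5 starts the forelimb bud by switching on Fgf10, and in the heart it acts with Nkx2-5, Gata4 and Tbx20 on genes of the beating muscle. At this stage the heart is a looped tube of muscle lined by endocardium, with chambers that have begun to form, while the limb bud is a pouch of undifferentiated mesenchyme under an ectodermal jacket, patterned by FGFs from its distal ridge, by Sonic hedgehog from its posterior margin and by Hox genes.

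Each library holds counts for 23279 listed genes, given as CPM (counts per 1000000 reads) and scaled here between libraries. Levels below are scaled CPM, differences are Ca minus FLB on the scale of log2(scaled CPM + 0.5), and the ± of a level is the SD over 3 libraries. The low values of a library step by the worth of 1 read, which put the depth at 7431884 to 8344870 reads for Ca and 5543746 to 5908858 for FLB. The depths of the tissues do not overlap, and a count of 3 reads corresponds to 0.383 to 0.420 CPM in Ca and 0.493 to 0.516 CPM in FLB. The correlation of log2 levels across genes was 0.988 to 0.992 between libraries of a tissue and 0.788 to 0.818 between tissues.

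Some libraries stand apart within their tissue. Ca replicate 2 had 20 genes at 16 CPM or more that were at least 4-fold above both other Ca libraries, led by genes of the liver such as Afp (34.7, 1441 and 225 CPM in the 3 Ca libraries), the fetal serum protein alpha-fetoprotein, and Alb (2.55, 139.6 and 20.2), albumin. Ca replicate 3 had 3 such genes, among them Alx4 (3.19, 2.94 and 24.7), a mesenchymal homeobox factor, and Crabp1 (11.0, 14.5 and 67.0), a retinoic acid binding protein. Ca replicate 1, FLB replicate 1 and FLB replicate 2 had 0, and FLB replicate 3 had 1, a ribosomal pseudogene. In a dissected piece, fewer cells of a type and less RNA per cell cannot be told apart.

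The marker genes fitted the labels. Tnnt2, Actc1, Myl7, Myl2 and Nppa, which mark heart muscle, lay between 1447 and 7829 CPM on average in Ca and between 0.0548 and 3.54 CPM in FLB. Prrx1, Lhx9, Lmx1b, Tbx15 and Hoxd11, which mark limb bud mesenchyme, lay between 24.0 and 673 CPM in FLB and between 0 and 19.8 CPM in Ca. Fgf10, the ligand by which limb mesenchyme signals to ectoderm, was at 31.9 ± 0.964 CPM in FLB and at 8.84 ± 0.472 CPM in Ca.

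Among 13308 genes that reached 1 CPM in 3 or more of the 6 libraries, 2348 (17.6%) were at least 2-fold higher in Ca and 1283 (9.64%) at least 2-fold lower, at an adjusted p under 0.05 in limma. By the adjusted p alone 4912 (36.9%) were higher and 5146 (38.7%) lower, and the median log2 difference was -0.03. The large differences lay mainly on the heart side: 146 called genes were higher in Ca by 5 or more on the log2 scale against 27 lower. Of the genes called higher in Ca, 90 are listed at 0 in all 3 FLB libraries, and of those called lower, 26 are listed at 0 in all 3 Ca libraries. A gene under 1 CPM in every library of 1 tissue could enter the test only through the other tissue. The direction of its difference was thus set by the filter, which applies to many sarcomere and Hox genes below and to some members of other lists. With CPM as deposited and no scaling, the median moved to -0.14 and the calls to 2136 higher and 1537 lower. Among 7800 genes at 16 CPM or more in both tissues, 3281 (42.1%) had a 95% interval of the difference within 0.5 either way.

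**Figure D1:**
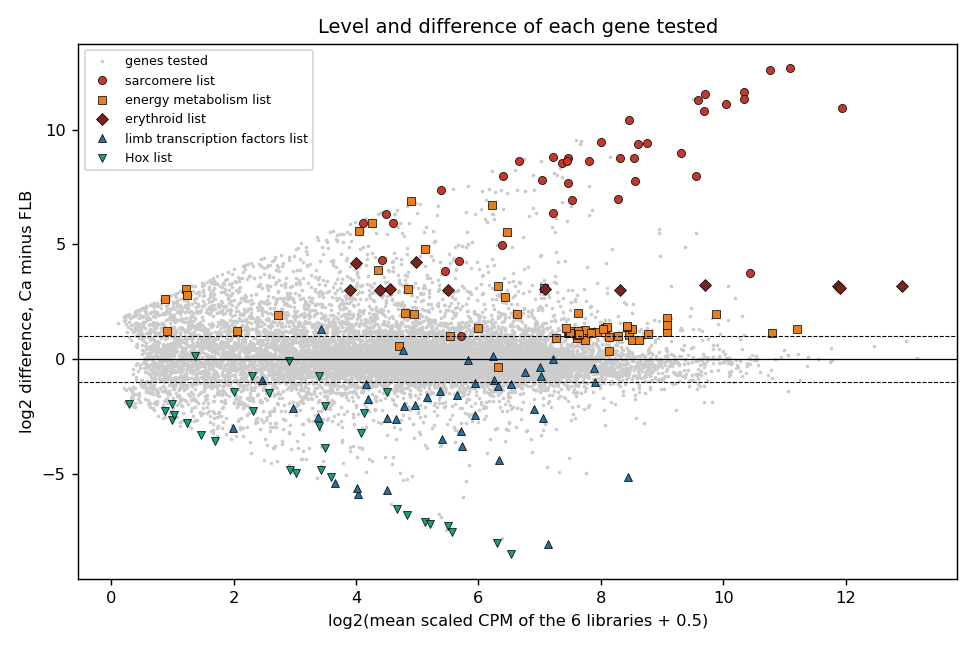
Each point is a gene tested, with the mean level of the 6 libraries on the x axis and the log2 difference Ca minus FLB on the y axis (dashed lines at 2-fold), and coloured symbols mark 5 gene lists. Sarcomere genes reach a log2 difference of 12.68, Hox genes fall to -8.53, and the erythroid genes lie in a band between 2.998 and 4.25.

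Tbx5 was transcribed in both tissues, and more in the limb bud. The Ca libraries had 91.4, 91.5 and 108 CPM and the FLB libraries 153, 163 and 169 CPM. The 3 FLB libraries lay above the 3 Ca libraries, with a log2 difference of -0.73 (SE 0.07, 95% interval -0.88 to -0.59, adjusted p 1.42e-07), 1.66-fold higher in FLB and so under the 2-fold threshold. Outside these tissues the early FLB had 100.1 CPM on average, and the branchial arch, tail bud and hindlimb bud groups had means under 1 CPM.

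Nkx2-5, the homeobox factor that Tbx5 acts with in the heart, was at 171, 129 and 146 CPM in Ca and listed at 0 in the 3 FLB libraries (adjusted p 6.62e-16). The remaining early cardiac factors were mostly like it. Of 28 factors of heart development, all tested, 19 were at least 2-fold higher in Ca (67.9%, against 17.6% of all genes tested). Another 2 were lower (7.14%, against 9.64%). The median log2 difference was 2.54 against -0.03 over all genes tested. Nkx2-5, Tbx20, Myocd and Hopx were under 1 CPM in every FLB library, so the filter set their direction. Tbx20, a T-box repressor and activator of heart genes, was at 439, 384 and 401 CPM in Ca and at 0, 0 and 0.172 CPM in FLB. Gata4 was at 349, 316 and 317 CPM in Ca and 2.21, 2.14 and 2.75 CPM in FLB, and Gata5 and Gata6, its relatives, differed by 5.11 and 4.35 on the log2 scale. The co-activator of SRF, Myocd, was at 64.9 ± 3.18 CPM in Ca against 0.112 ± 0.0972 CPM in FLB, and Srf, the factor it works with, was higher by 1.23. Mef2c, a factor of muscle genes, was higher in Ca by 3.11 and Hand1 by 5.60.

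Several factors used in both organs did not pass the test or were lower in Ca. Hand2, a basic helix-loop-helix factor needed for the right ventricle and for the posterior limb bud, was at 156, 144 and 141 CPM in Ca and 155, 147 and 145 CPM in FLB. The ranges overlap, and the difference was -0.02 with a 95% interval of -0.14 to 0.10 (adjusted p 0.73). Hey1, a Notch target, and Tbx1 also did not pass the test, though both did without Ca replicate 3 (-0.26 and -1.01). Tbx2 and Tbx3, T-box repressors of the atrioventricular canal and of limb margins, were lower in Ca (-1.03 and -1.59). Without Ca replicate 1, without Ca replicate 2, without FLB replicate 3 or with median-of-ratios scaling Tbx2 was under 2-fold and 1 of the 28 factors was called lower, and without Ca replicate 3 this count was 3. Isl1, a factor of cardiac progenitors, was at 8.43, 9.65 and 9.14 CPM in Ca and 2.38, 2.30 and 3.44 CPM in FLB, low in both and higher in Ca by 1.59.

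**Figure D2:**
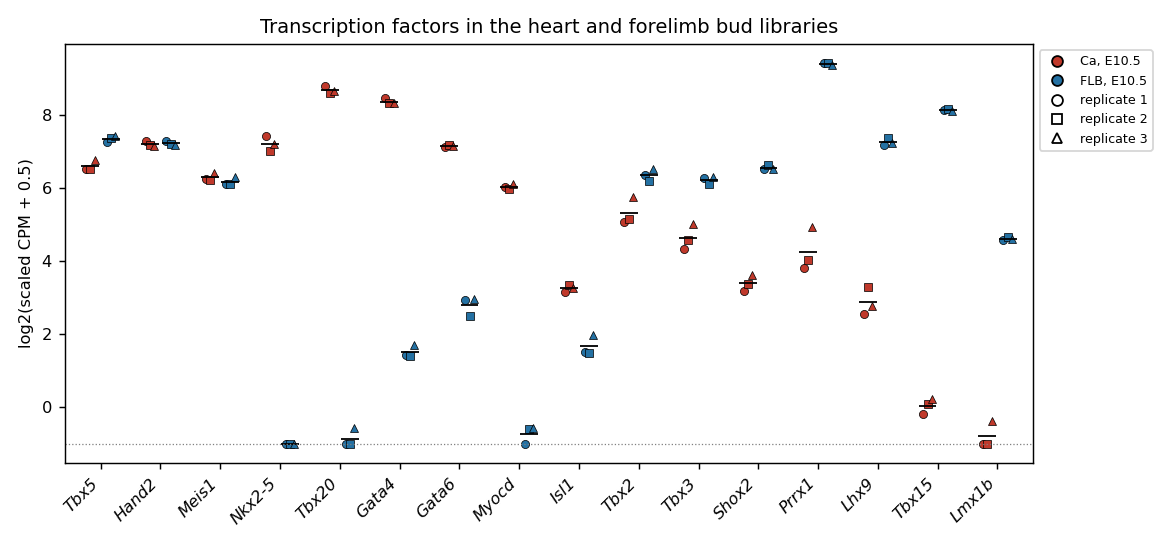
Points are the 3 libraries of Ca (red) and FLB (blue) on a log2 scale, shapes give the replicate number, black bars are means, and the dotted line is the value of a gene listed at 0. Tbx5 lies higher in FLB by less than 2-fold, Hand2 and Meis1 did not pass the test, Nkx2-5 to Isl1 are higher in Ca, and Tbx2 to Lmx1b are higher in FLB.

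Of the gene lists compared, the sarcomere list had the largest median difference. Of 42 sarcomere genes 40 passed the filter, and all 40 were at least 2-fold higher in Ca, by a median of 8.64 on the log2 scale (9.44 with a pseudocount of 0.1 and 7.92 with a pseudocount of 1). Many of them, such as Myh7 (0.171 CPM on average in FLB) and Hspb7 (0), passed the filter only through their level in Ca. For these genes the direction was set by the filter, so the count of calls is not separate evidence. Summed over the list, the Ca libraries held 47660.0, 40321 and 40311 CPM and the FLB libraries 274, 268 and 293 CPM. Myom2, an M-band protein, and Xirp2 did not pass the filter and were under 1 CPM in each library.

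The promoters of some of these genes carry a shared sequence. The CArG box, the site that SRF binds, was searched on both strands in the 250 bases before each RefSeq gene start (GRCm38.p6). It was found for 8 of the 37 sarcomere genes with a promoter in that table (21.6%), for 140 of 9505 tested genes with one (1.47%) and for 439 of 27025 genes in all (1.62%). The MEF2 site, which can overlap it, was found for 5 of the 37 (13.5%) and 1.99% of all, and AGGTGTGA, a T-box motif, for 1 (2.70%) and 1.30%. TNAAGTG, a motif of Nkx2-5, was found for 3 (8.11%) and 11.4%. These matches are a description of the letters in this window. A gene with several starts counted if any of its windows held the motif, so more starts gave more room for a match. The CpG count of the window had a median of 4 in the sarcomere genes, 6 over all promoters, 17 over tested genes and 16 over 25 limb factors with a promoter.
Printed are the windows of the 3 sarcomere genes among the 15 with the largest differences that hold a CArG box (in capitals), with 37, 51 and 75 bases between the box and the start for Actc1 (chr2:114052876-114053125, minus strand), Myl7 (chr11:5898783-5899032, minus strand) and Myl3 (chr9:110763428-110763677, plus strand), and, for contrast, that of Hoxd13 (chr2:74667975-74668224, plus strand) with its 31 CG pairs in capitals.
Actc1: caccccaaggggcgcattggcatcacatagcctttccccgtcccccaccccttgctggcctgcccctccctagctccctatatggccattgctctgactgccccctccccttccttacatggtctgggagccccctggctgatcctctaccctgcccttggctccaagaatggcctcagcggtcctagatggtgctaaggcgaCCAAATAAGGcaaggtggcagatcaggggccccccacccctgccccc
Myl7: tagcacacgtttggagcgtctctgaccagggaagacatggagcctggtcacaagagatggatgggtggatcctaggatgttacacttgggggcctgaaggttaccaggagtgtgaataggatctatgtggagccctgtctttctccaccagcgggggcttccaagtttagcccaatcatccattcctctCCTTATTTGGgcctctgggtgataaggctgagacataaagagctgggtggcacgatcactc
Myl3: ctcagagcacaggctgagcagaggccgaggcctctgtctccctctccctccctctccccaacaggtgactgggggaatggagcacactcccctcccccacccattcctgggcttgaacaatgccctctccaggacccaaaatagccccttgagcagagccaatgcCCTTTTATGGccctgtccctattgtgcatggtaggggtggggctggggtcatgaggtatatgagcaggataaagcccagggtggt
Hoxd13: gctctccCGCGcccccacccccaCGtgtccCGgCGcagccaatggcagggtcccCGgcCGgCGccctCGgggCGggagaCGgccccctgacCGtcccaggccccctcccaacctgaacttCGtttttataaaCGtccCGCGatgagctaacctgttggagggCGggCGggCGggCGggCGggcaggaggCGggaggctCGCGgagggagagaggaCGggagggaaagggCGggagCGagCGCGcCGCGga

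Thick filament genes led the list. Myh7, the beta myosin heavy chain, was at 4789.9, 3944 and 4265 CPM in Ca and 0.170, 0 and 0.344 CPM in FLB, and Myh6, the alpha chain, at 2627, 2485 and 2643 and 0.170, 0 and 1.03 CPM. Per kilobase of exon the Ca level was 503 CPM for Myh7 and 384 CPM for Myh6, although reads of these neighbouring and nearly identical genes may be split with error. Of the light chains, Myl2 had 4089.6, 3262 and 3071 CPM in Ca and 1 read in all of FLB, and Myl7, the atrial light chain, had 1806, 1569 and 1561 CPM in Ca and 0, 0.329 and 1.38 CPM in FLB. Mybpc3, the myosin binding protein, was at 1526 CPM and Ttn, the giant spring of the sarcomere, at 659, 651 and 906 CPM in Ca. FLB replicate 3 held the most reads of Myh6, Myl7 and Ttn among the FLB libraries, and Ttn was at 0.679, 0.986 and 2.07 CPM in FLB.

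Among thin filament genes Actc1, the cardiac alpha actin, was the highest at 8749, 7497 and 7239.7 CPM in Ca and 2.55, 3.78 and 4.30 CPM in FLB. Acta1 and Acta2, the skeletal and smooth muscle actins that the early heart also uses, were at 352 and 1501 CPM in Ca, and the split of reads between actins is uncertain. Tnnt2, Tnnc1 and Tnni1, subunits of the calcium switch troponin, were higher by 11.12, 9.41 and 8.97. The smallest differences were those of the tropomyosins, with Tpm1 at 2847, 2442 and 2466 CPM in Ca and 193, 185 and 199.5 CPM in FLB and Tpm2 at 73.8, 67.3 and 67.6 and 36.8, 35.5 and 31.3 CPM. Tropomyosins are also made by non-muscle cells. Tpm2 lay at the 2-fold threshold, was under it with CPM as deposited, with a pseudocount of 1, and without Ca replicate 1 or FLB replicate 3, and these are the settings in which 39 of the 40 genes were called.

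Of the Z disc and assembly genes 15 of 15 tested were higher, many of them tested only through their level in Ca. Actn2, which cross-links actin at the Z disc, was at 878, 717 and 739.6 CPM in Ca and at 0.170, 0.986 and 1.03 CPM in FLB. Hspb7, a small heat shock protein of heart muscle, was at 794, 648 and 652 CPM in Ca and listed at 0 in FLB. Ankrd1, a stretch-responsive ankyrin protein, was at 581, 471 and 483 and 0.170, 0.164 and 0.344 CPM, and Des, the muscle intermediate filament, at 746 and 2.93 CPM on average. Myl3 overlaps Pth1r and Tnnc1 overlaps Nisch on the opposite strand, and the strand setting of the counting is not given in the sources used here.

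Genes of excitation and calcium were higher in Ca with the contractile genes. Of 33 tested of 34, 28 were at least 2-fold higher (84.8%, against 17.6% of all genes tested) and 1 lower (3.03%, against 9.64%). The median was 3.73. Members under 1 CPM in every FLB library, such as Pln, entered the test only through Ca. Ryr2, the calcium release channel, was at 338, 302 and 346 CPM in Ca and 0.849, 0.657 and 1.03 CPM in FLB, and Pln, which restrains the calcium pump, at 453, 345 and 351 CPM and listed at 0. The pump Atp2a2 and the exchanger Slc8a1 were expressed in both tissues and were 6.25-fold and 46.1-fold higher in Ca. Hcn4, the pacemaker channel, was at 55.8, 60.1 and 61.2 CPM in Ca and 2.89, 1.64 and 2.58 CPM in FLB.

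The channel that went the other way was Cacna1g, a T-type calcium channel, with 7.66, 9.51 and 26.9 CPM in Ca and 149, 149 and 174 CPM in FLB. Ca replicate 3 had the highest of the Ca values, and the difference was -3.59 (SE 0.53, adjusted p 0.00365). Its relative Cacna1h was higher in Ca by 1.99. The gap junction genes were split: Gja5, of the fast-conducting atrial and trabecular muscle, was higher in Ca by 2.63, while Gja1 (236, 218 and 241.2 CPM in Ca, 366, 347 and 362 CPM in FLB) and Gjc1 were higher in FLB by less than 2-fold. The peptide hormones Nppa and Nppb were at 1605, 1313 and 1424 and 96.7, 80.01 and 72.3 CPM in Ca, with 1 read of Nppa in FLB and Nppb listed at 0.

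Of 11 intercalated disc genes 10 were at least 2-fold higher in Ca (90.9%, against 17.6% of all genes tested), with a median of 2.90. The desmosomal genes Dsp and Pkp2 differed by 2.90 and 6.54, and Cdh2, the cadherin of heart muscle and of limb mesenchyme, was at 454, 411 and 410.5 CPM in Ca and 131, 126 and 137 CPM in FLB. Vcl, a protein of adherens junctions in many cells, was higher by 0.76, under 2-fold.

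Genes of every chamber type were present in the heart libraries. Of 21 chamber genes tested 15 were at least 2-fold higher in Ca (71.4%, against 17.6% of all genes tested) and 3 lower (14.3%, against 9.64%). All 5 ventricular genes were higher in Ca, among them the repressor Hey2 at 84.3, 63.4 and 62.7 CPM in Ca against 2.21, 1.97 and 1.38 CPM in FLB and Irx4 at 79.4, 68.3 and 69.8 against 3.06, 3.29 and 3.27 CPM. Of 7 atrial genes tested 5 were higher, and Nr2f1 and Nr2f2, nuclear receptors that set atrial identity, were higher in FLB by less than 2-fold (-0.49 and -0.46), for Nr2f1 not past the test without Ca replicate 2 or any of the FLB libraries. Sln, the atrial pump regulator, was not tested, at 1.15, 0.420 and 1.21 CPM in Ca. Of 4 trabecular genes 3 were higher, including Bmp10, at 39.7, 34.1 and 30.3 CPM in Ca and listed at 0 in FLB. The sinus venosus genes divided, with Hcn4 and Isl1 higher in Ca and Shox2 and Tbx3 higher in FLB. Shox2, needed for the sinoatrial node and for the upper limb bones, was at 8.56, 9.79 and 11.8 CPM in Ca and 91.0, 98.3 and 91.1 CPM in FLB.

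Energy genes were higher in the heart almost throughout. Of 61 genes, all tested, 51 were at least 2-fold higher (83.6%, against 17.6% of all genes tested) and 0 lower (against 9.64%). The median was 1.29. By adjusted p alone 60 were higher (against 36.9% of all genes tested) and 1 lower (against 38.7%). The exception was Tfam, the mitochondrial DNA packaging factor (-0.35). In the respiratory chain 28 of 28 genes were higher by adjusted p, with a median of 1.17. Atp5b, a subunit of ATP synthase, was at 3619, 3316 and 3198 CPM in Ca and 1379.9, 1378 and 1292 CPM in FLB, and Cox4i1, a general subunit of complex IV, differed by 0.85. The muscle forms of complex IV stood out from it, with Cox6a2 at 62.1, 60.4 and 54.3 CPM in Ca and listed at 0 in FLB and Cox7a1 at 35.0, 31.3 and 29.6 and 0.170, 0.164 and 0.172 CPM. Fatty acid genes had a median of 1.97, and Fabp3 and Cpt1b, the muscle carrier and the muscle gatekeeper of fatty acid oxidation, differed by 6.71 and 5.56 while Cpt1a, the gatekeeper of most other tissues, differed by 0.56. The regulators Ppargc1a and Esrrg were at 53.4, 49.7 and 49.7 and 74.4, 60.4 and 65.5 CPM in Ca and at 6.79, 6.08 and 4.65 and 1.19, 2.79 and 2.07 CPM in FLB.

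Glycolysis was also higher, with 11 of 19 tested genes at least 2-fold up in Ca (57.9%, against 17.6% of all genes tested) and 0 down (against 9.64%). The hexokinase Hk1, the glucose transporter Slc2a1 and the platelet form of phosphofructokinase, Pfkp, differed by 3.08, 2.39 and 5.31. Slc2a3, another glucose transporter, went the other way (-0.79), under 2-fold, with 75.6, 75.9 and 91.2 CPM in Ca and 142, 137 and 141 CPM in FLB.

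Other cell types of the heart and its surroundings were seen in the same libraries. Of 22 endothelial genes 14 were at least 2-fold higher in Ca (63.6%, against 17.6% of all genes tested) and 2 lower (9.09%, near the 9.64% of all genes tested). The general genes Cdh5, Kdr and Pecam1 differed by 1.26, 1.25 and 1.43, whereas Npr3 and Tek differed by 3.35 and 3.20. Npr3, a receptor of natriuretic peptides found on endocardium, had 199, 182 and 168 CPM in Ca and 17.1, 14.6 and 21.0 CPM in FLB. Fli1 and Cldn5 were lower in Ca, with Fli1, an ETS factor, at 13.4, 21.0 and 16.8 and 51.8, 55.6 and 52.0 CPM. Of 9 tested epicardial genes 7 were higher in Ca (77.8%, against 17.6% of all genes tested). Among them were Wt1 (48.0, 46.0 and 47.7 CPM in Ca, 2.72, 2.79 and 4.65 CPM in FLB) and Tcf21 (50.7, 43.6 and 51.6 and 0, 0.164 and 0.172 CPM), factors of the outer layer of the heart. Tcf21, Upk3b and Upk1b were under 1 CPM in every FLB library, so the filter set their direction. Tbx18, which marks epicardium and also proximal limb mesenchyme, was higher in FLB (-0.56).

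Erythroid transcripts were higher in the heart libraries. All 12 tested erythroid genes were higher in Ca (100%, against 17.6% of all genes tested), with a median of 3.07. The sum of the list was 35426, 30357 and 24555 CPM in Ca and 4131, 3136 and 2864 CPM in FLB. Hbb-y, an embryonic beta-type globin and the highest gene of the heart libraries, was at 16549, 13594 and 11609 CPM in Ca and 1923, 1389.9 and 1299 CPM in FLB. Klf1, a factor of red cells, and Alas2, an enzyme of haem synthesis, differed by 3.06 and 3.05, and Hbb-y by 3.18. Reads of the adult globin genes, which have near-identical copies, are split with error: Hbb-b1 was listed at 10.01, 0.00632 and 0.144 CPM in the FLB libraries, and the calls of Hbb-b1 and Hbb-b2 were lost without any of the Ca libraries or without FLB replicate 2 (that of Hbb-b1 also without FLB replicate 3).

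Liver-type genes were uneven between heart libraries. Their list summed to 44.3, 1731 and 273 CPM in Ca and 0, 1.15 and 1.38 CPM in FLB. Of 5 tested members of 13, 4 were called higher in Ca (80%, against 17.6% of all genes tested). These 4, Afp, Alb, Ttr and Foxa2, are listed at 0 in the 3 FLB libraries. All 5 tested members were under 1 CPM in every FLB library and passed the filter only through Ca. Their direction was thus set by the filter, and the count of calls is not separate evidence. The count was 5 without Ca replicate 1 or 2, 3 without Ca replicate 3 and 2 without any of the FLB libraries. Of 8 tested macrophage genes 0 were called at 2-fold on the scale of log2(CPM + 0.5), although Ptprc, at 0.638, 1.26 and 1.21 CPM in Ca and 1.87, 2.14 and 2.24 CPM in FLB, passed the test with -0.77 (adjusted p 0.0182), though not without Ca replicate 1 or FLB replicate 3, and was called lower with voom. The macrophage list had sums of 19.9, 56.2 and 31.9 CPM in Ca and 29.1 to 31.3 CPM in FLB. The part that liver-type RNA in Ca replicate 2 had in the results was not tested, and the counts without that library were 2357 higher and 1277 lower.

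**Figure D3:**
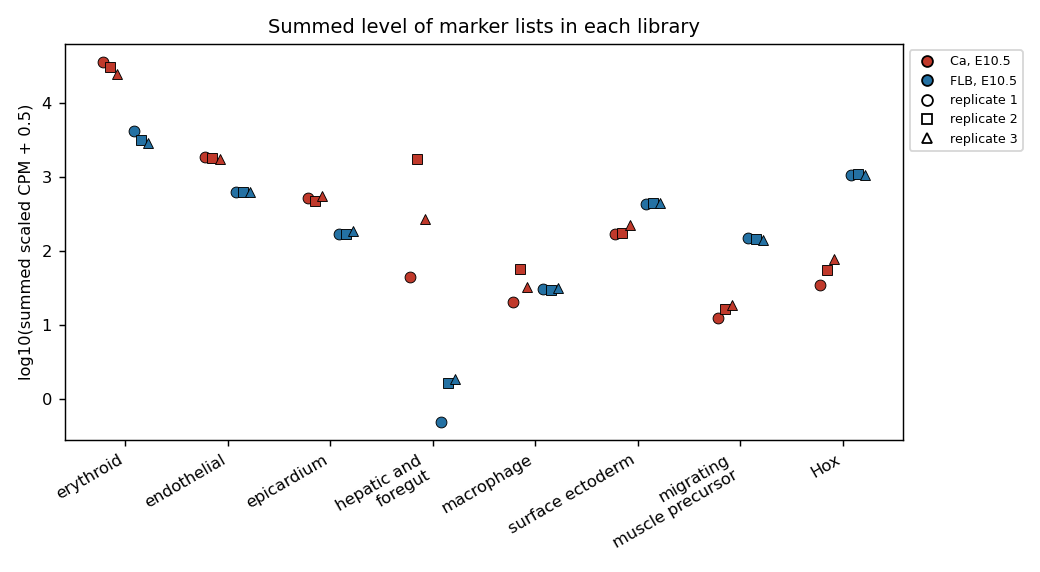
Each point is the summed level of a gene list in a library, on a log10 scale after adding 0.5, with Ca in red, FLB in blue and the replicate number given by the shape. The erythroid sum is 24555 to 35426 CPM in Ca and 2864 to 4131 CPM in FLB, the liver-type sum runs from 44.3 to 1731 CPM over the Ca libraries, and the Hox sum is 34.0 to 78.0 CPM in Ca and 1051 to 1082 CPM in FLB.

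Matrix genes were mostly higher in the heart. Of 37 genes 22 were at least 2-fold higher in Ca (59.5%, against 17.6% of all genes tested) and 3 lower (8.11%, near the 9.64% of all genes tested). The median was 1.21. Fn1, fibronectin, was at 1909, 1838 and 2193 CPM in Ca and 533, 508 and 556 CPM in FLB, Sparc at 1025 and 111 CPM, and Hapln1, a link protein of the cardiac jelly, at 372, 308 and 299 and 40.7, 42.6 and 35.5 CPM. Tnc, tenascin C, was uneven in Ca with 97.2, 86.9 and 240.5 CPM, highest in replicate 3. Col9a1 and Col11a1, collagens of cartilage, were lower in Ca (-1.47 and -1.27), as was Col6a3 (-1.52), while Col2a1 did not pass the test (379, 314 and 292 CPM in Ca, 276, 306 and 332 CPM in FLB).

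On the limb side, 27 of 40 tested limb transcription factors were at least 2-fold lower in Ca (67.5%, against 9.64% of all genes tested). Only 1 was higher (2.5%, against 17.6%), and the median was -1.89. Tbx15, a T-box factor of limb and trunk mesenchyme, had 0.383, 0.559 and 0.672 CPM in Ca and 279.9, 286 and 275 CPM in FLB (-8.09, SE 0.12, adjusted p 3.97e-17). Prrx1, the homeobox factor that marks limb mesenchyme, was the highest factor of the list at 681, 679 and 661 CPM in FLB against 13.4, 15.9 and 29.98 CPM in Ca. The LIM homeobox genes Lhx2, Lhx9 and Lmx1b, which relay ridge signals and set dorsal identity, differed by -3.47, -4.39 and -5.41. Emx2 and Pax1, of the shoulder girdle, differed by -5.64 and -5.71, and Meox2 and Zic2, chosen for the size of their difference, by -6.77 and -6.32.

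Ca replicate 3 had the highest heart level of several mesenchymal factors. Prrx1 was at 13.4, 15.9 and 29.98 CPM in the Ca libraries and Msx2 at 9.32, 7.83 and 21.1 CPM. For Alx4 the call was lost when any library but Ca replicate 3 was left out. The summed level of 23 mesenchymal factors was 382, 389 and 537 CPM in Ca and 2462 to 2477 CPM in FLB. The part that mesenchyme next to the heart had in these values was not tested, and without Ca replicate 3 the counts over all genes were 2368 higher and 1363 lower.

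Proximal factors were called at 2-fold at shares near those of all genes tested. Of 8 such factors 1 was lower in Ca by 2-fold, Irx3 at -1.39 (12.5%, against 9.64% of all genes tested). Another 1 was higher, Meis3 at 1.32 (12.5%, against 17.6%). Meis1, a homeobox factor of the trunk and proximal limb, was at 75.0, 74.1 and 84.3 CPM in Ca and 68.1, 68.9 and 77.5 CPM in FLB, with a 95% interval of -0.03 to 0.28 for the difference. Pbx3, a partner of Meis proteins, differed by -0.06 (95% interval -0.23 to 0.11).

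Hox genes were almost all lower in the heart. Of 39 listed, 33 were tested, 28 were at least 2-fold lower (84.8%, against 9.64% of all genes tested) and 0 higher (against 17.6%). The median was -2.92. Many of these genes, such as Hoxa10, were under 1 CPM in every Ca library and entered the test only through FLB. For these the direction was set by the filter, so the count of calls is not separate evidence. The sum of the list was 34.0, 54.8 and 78.0 CPM in Ca and 1051, 1082 and 1069 CPM in FLB. In the Hoxa and Hoxd clusters the posterior genes differed most. Hoxa4 did not pass the test (it did without Ca replicate 2 or 3), Hoxa5 was lower (-2.38), and Hoxa10 was listed at 0 in Ca and at 182, 196 and 176 CPM in FLB. All 8 tested Hoxd genes were lower, from -2.25 for Hoxd3 to -8.01 for Hoxd13, which was at 157, 150.2 and 163 CPM in FLB and 0, 0 and 0.403 CPM in Ca. Hoxd9, Hoxd10, Hoxd11 and Hoxd12 were listed at 0 in all 3 Ca libraries.

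In the Hoxb cluster 5 of 8 tested genes were lower in Ca (62.5%, against 9.64% of all genes tested). Of these, Hoxb6, Hoxb7, Hoxb8 and Hoxb9 were under 1 CPM in every Ca library, so the filter set their direction. Hoxb4 was at 3.58, 7.55 and 9.95 CPM in Ca and 6.45, 7.23 and 7.06 CPM in FLB, and Hoxb2 at 4.60, 7.55 and 10.6 and 10.4, 13.0 and 13.9 CPM, and for Hoxb3 the difference of -1.46 did not pass the test (adjusted p 0.0524) but did without Ca replicate 3 (-1.94). The difference of Hoxb2, under 2-fold, did not pass without Ca replicate 2, FLB replicate 2 or FLB replicate 3. The values of Hoxb2, Hoxb3 and Hoxb4 were lowest in Ca replicate 1 and highest in Ca replicate 3. Hoxb genes summed to 18.0, 27.0 and 44.9 CPM in the Ca libraries and Hoxa genes to 11.5, 19.9 and 21.6 CPM, with 2.94, 5.59 and 7.53 CPM for Hoxc and 1.53, 2.38 and 3.90 CPM for Hoxd genes. Several genes overlap a neighbour on the same strand in 1 or both of the GENCODE and RefSeq annotations, which differ here (Hoxa3 with Hoxa4, Hoxb3 with Hoxb4, Hoxc5 with Hoxc6, Hoxd3 with Hoxd4 and Hoxd10 with Hoxd11 among them), so reads may be split with error, and Hoxa11 (90.5, 100.1 and 78.8 CPM in FLB) lies opposite its antisense gene Hoxa11as (84.7, 88.9 and 89.7 CPM).

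**Figure D4:**
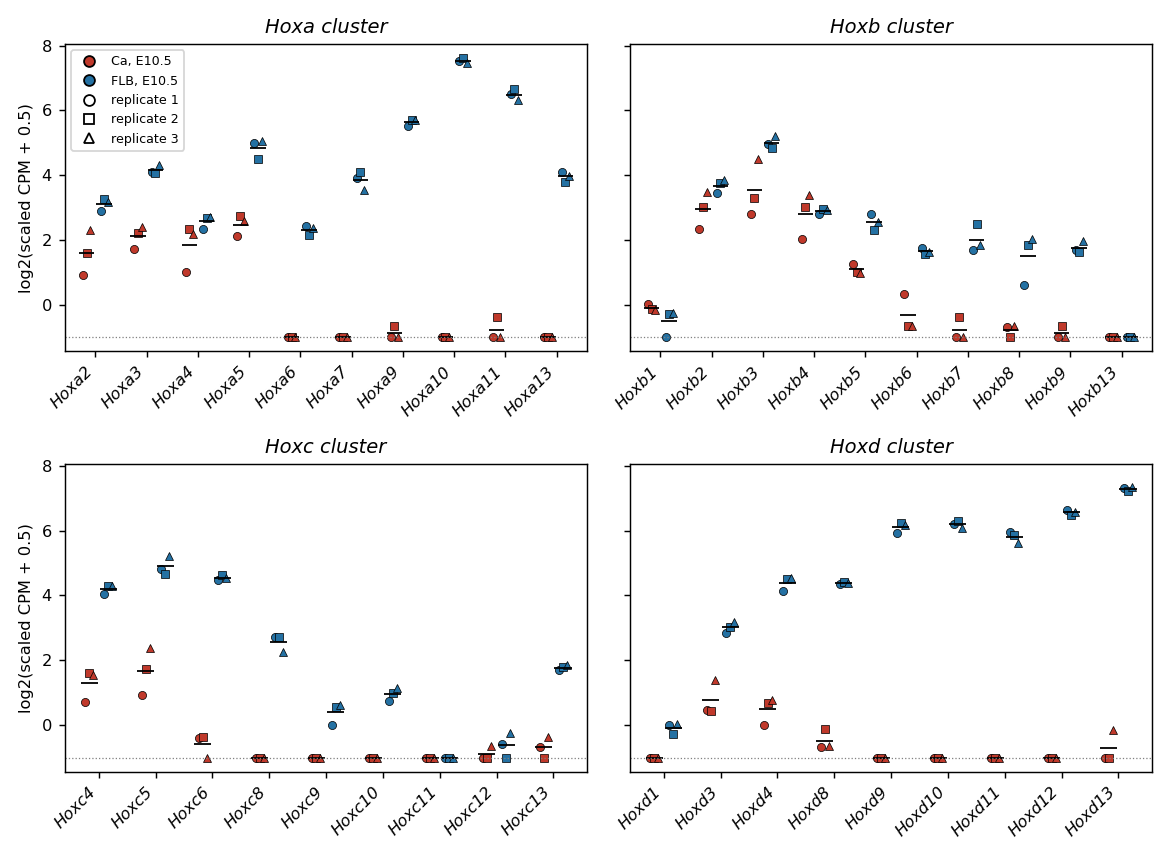
Hox genes reported here are set in cluster order from the anterior end on the x axis, with log2 levels of the 3 Ca (red) and 3 FLB (blue) libraries, shapes for the replicate number, bars for means and a dotted line at the value of a gene listed at 0. In Ca the genes from Hoxa6 on and from Hoxd9 on lie at or near the dotted line, while FLB rises to 185 CPM for Hoxa10 and 157 CPM for Hoxd13.

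Receptors and effectors of the hedgehog pathway were lower in the heart, and its ligands were split. Of 13 tested genes 10 were at least 2-fold lower in Ca (76.9%, against 9.64% of all genes tested) and 1 was higher (7.69%, against 17.6%). Shh, the ligand of the posterior limb margin, was at 0.766, 0.559 and 1.88 CPM in Ca and 11.9, 12.3 and 11.4 CPM in FLB, and Dhh, the ligand that was higher in Ca, at 6.26, 4.76 and 5.11 and 0.679, 0.822 and 0.172 CPM. The receptor side followed, with Smo, the signal transducer, at -1.26 and the coreceptors Gas1 and Boc at -1.69 and -2.15, while Ptch1, receptor and target, differed by -0.92, under 2-fold. Gli1, the direct target of the pathway, was at 5.24, 8.67 and 10.6 CPM in Ca and 47.7, 50.1 and 50.1 CPM in FLB, and Gli3, the factor that Shh relieves, at 34.9, 36.1 and 44.0 and 225, 234 and 219.8 CPM.

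FGF signalling genes were also higher in the limb bud. Of 21 tested of 28, 13 were at least 2-fold lower in Ca (61.9%, against 9.64% of all genes tested) and 2 higher (9.52%, against 17.6%). Fgf8, the ridge ligand, was at 0.766, 0.420 and 0.269 CPM in Ca and 16.98, 23.7 and 21.2 CPM in FLB, while 2 of 7 tested ligands were higher in Ca, Fgf1 at 14.9, 13.0 and 11.4 against 1.53, 0.657 and 1.03 CPM and Fgf7 by 1.39, and Fgf9 did not pass the test. Fgfr1 differed by -1.99. Of 9 feedback genes and targets 7 were lower in Ca, including Dusp6 (67.3, 61.8 and 55.0 CPM in Ca, 229.7, 225 and 210.2 CPM in FLB), a phosphatase that limits the signal, and Il17rd, a membrane inhibitor (-3.15). Spry2 did not pass the test (-0.14).

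In the Wnt list 8 of 48 tested genes were at least 2-fold higher in Ca (16.7%, against 17.6% of all genes tested) and 23 lower (47.9%, against 9.64%). All 6 targets were lower in Ca, with Axin2, a feedback inhibitor, at 11.0, 15.7 and 26.1 CPM in Ca and 93.2, 96.6 and 99.0 CPM in FLB. Ligands of limb ectoderm, Wnt3, Wnt6, Wnt7a and Wnt7b, were lower in Ca (-3.58, -3.92, -2.95 and -3.75 in that order), with most of the heart reads of Wnt3, Wnt6 and Wnt7b in Ca replicate 3 (0.383, 0.839 and 6.86 CPM for Wnt6). Without Ca replicate 2 or without any of the FLB libraries the calls of Wnt3, Wnt6 and Wnt7b were lost, with differences of -3.07 to -3.94, and those of Wnt3 and Wnt7b also without Ca replicate 1. Wnt2 and Wnt2b, ligands of the heart and its inflow region, were higher in Ca by 3.19 and 2.68. Of the secreted antagonists Dkk3 (3.95) and Sfrp5 (4.13) were higher in Ca and Wif1 (-4.30) and Frzb (-3.11) lower.

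Most BMP and TGF-beta ligands were higher in the heart. Of 13 ligands 9 were at least 2-fold higher in Ca (69.2%, against 17.6% of all genes tested). Just 1, Gdf5, a ligand of joints, was lower (7.69%, against 9.64%). Of 6 targets 0 were higher by 2-fold and 2 lower (33.3%, against 9.64%). Bmp2, Bmp5 and Bmp7 differed by 1.79, 1.99 and 1.32, and Bmp4 was slightly higher in FLB (-0.33). Grem1, the antagonist that links Shh to the ridge, was at 0.383, 0.280 and 1.48 CPM in Ca and 22.9, 30.7 and 23.9 CPM in FLB. Smad6, an inhibitory Smad, was higher in Ca by 2.04, Id3 did not pass the test (0.02), and Msx1 and Msx2 were the 2 lower targets.

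Of 16 tested retinoic acid genes 3 were higher in Ca (18.75%, near the 17.6% of all genes tested) and 6 lower (37.5%, against 9.64%). Of the 6 tested genes of the synthesis side 2 were higher and 1 lower. The synthesis enzyme Aldh1a2 was higher in Ca (49.3, 39.2 and 66.3 CPM against 6.45, 7.40 and 6.54 CPM), as was Aldh1a1 by 6.08. The degrading enzyme Cyp26b1, which keeps the distal limb low in retinoic acid, was at 13.8, 10.2 and 14.8 CPM in Ca and 224, 222 and 216 CPM in FLB. The receptor Rarg and the binding protein Crabp2 were lower in Ca (-3.49 and -4.96), while Rara and Rarb did not pass the test (-0.07 and -0.03). Of 17 Notch genes tested 2 were higher in Ca, Dll1 and Hey2 (11.8%, against 17.6%), and 4 lower (23.5%, against 9.64%). The receptors Notch2 and Notch3 were at -1.26 and -1.71 and Notch1 at 0.01.

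Markers of limb ectoderm and of migrating muscle precursors were mostly lower in Ca. All 7 tested genes of migrating muscle precursors were lower (100%, against 9.64% of all genes tested). Pax3, their paired box factor, was at 0.383, 0.559 and 0.134 CPM in Ca and 16.98, 18.2 and 15.5 CPM in FLB. Pax3, Lbx1 and Myf5 were under 1 CPM in every Ca library and entered the test only through FLB. Their direction was thus set by the filter. Of 17 ectodermal genes 12 were lower (70.6%, against 9.64%) and 1 higher (5.88%, against 17.6%). Krt5, a basal keratin, was at 0, 0 and 0.807 CPM in Ca and 84.4, 72.8 and 89.7 CPM in FLB. Sp8, a ridge factor, was listed at 0 in Ca and at 12.2, 11.0 and 10.3 CPM in FLB. Krt5, Krt14, Fgf8, Sp6 and Sp8 were under 1 CPM in every Ca library, so the filter set their direction. Krt8, the higher one, is a keratin of simple epithelia such as mesothelium, and was not called with CPM as deposited or without Ca replicate 3. Cxcl14, a chemokine of ectoderm among the 15 largest differences, had 0.383, 0.140 and 6.45 CPM in Ca. Of 8 tested crest and neuron genes 2 were at least 2-fold lower, Sox10 and Dcx (25%, against 9.64% of all genes tested), and 0 higher (against 17.6%). Dcx, a microtubule protein best known from neurons, was at 85.7, 90.4 and 94.0 CPM in FLB against 4.98, 8.25 and 7.80 CPM in Ca, while the neuronal genes Elavl4 and Stmn2 did not pass the test. By adjusted p alone 2 of the 8 were higher in Ca, the neuronal gene Tubb3 by 0.44 and Erbb3 by 0.48, and 3 were lower.

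**Figure D5:**
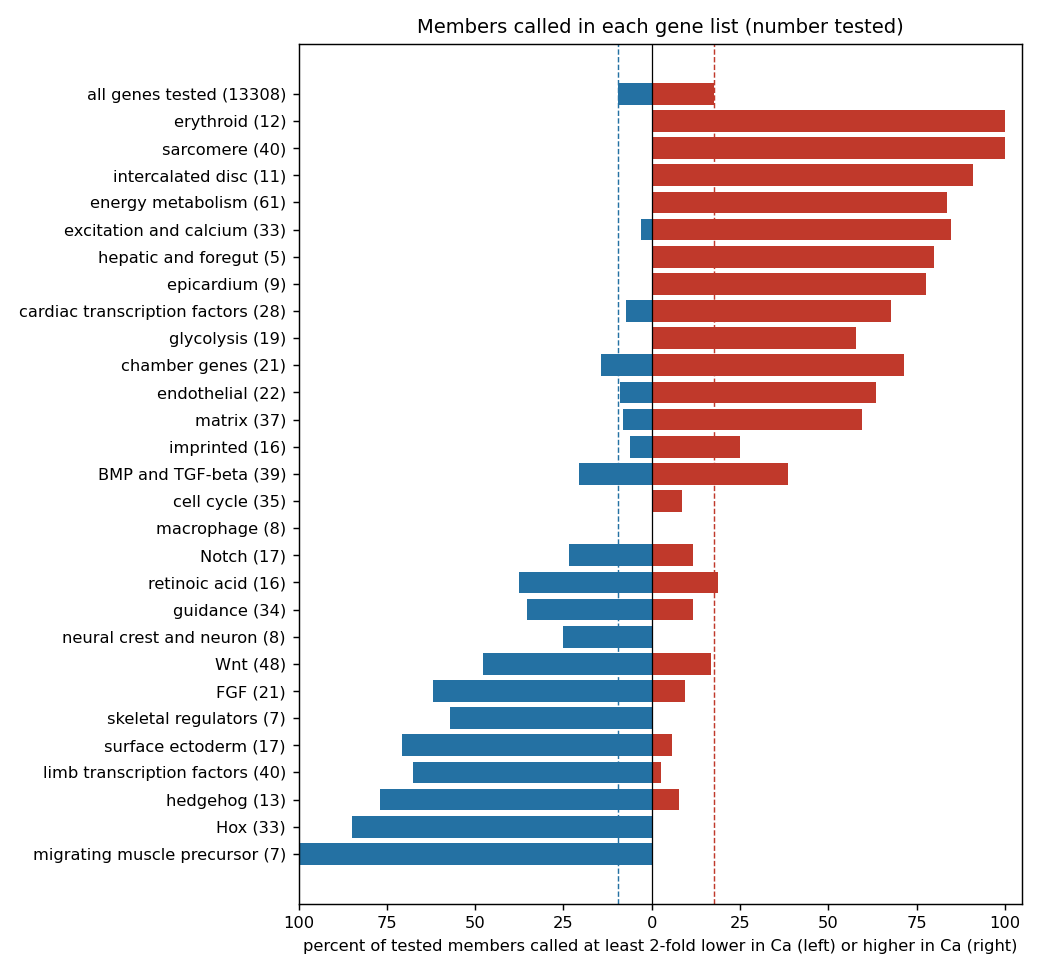
Bars give the percent of tested members of each gene list (number tested in parentheses) called at least 2-fold higher in Ca (red, right) or lower in Ca (blue, left), and dashed lines give the same over all genes tested, 17.6 and 9.64%. Sarcomere and erythroid genes are all called higher, migrating muscle precursor genes are all called lower, and cell cycle and macrophage genes are near the centre.

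Genes of cell division mostly differed by less than 2-fold. Of 35 cell cycle genes 3 were at least 2-fold higher in Ca (8.57%, against 17.6% of all genes tested) and 0 lower (against 9.64%). The median was -0.30, and by adjusted p alone 7 were higher and 20 lower. Mki67, the proliferation antigen, was at 542, 566 and 574 CPM in Ca and 519.8, 508 and 518 CPM in FLB, a difference of 0.12 that passed the test in the scaled values and not with CPM as deposited or without FLB replicate 2, while Top2a was higher in FLB (-0.78) and Cdk1 did not pass the test (-0.04). The 3 higher genes were the G1 regulators Ccnd3, Cdkn1c and Cdkn2c, and Cdkn1c, an imprinted inhibitor of cell division, was at 1531, 1381 and 1362 CPM in Ca and 497, 485 and 519.7 CPM in FLB.

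The most abundant genes were partly shared. Eef1a1, an elongation factor, H19, Igf2 and Mest were among the 10 highest of both tissues, with Eef1a1 at 9409.5 ± 309.6 CPM in Ca and 9001 ± 181 CPM in FLB and not past the test (adjusted p 0.0528). The others in Ca were the globins Hbb-y, Hbb-bh1 and Hba-x and the muscle genes Actc1, Myh7 and Myl2. In FLB they were Hsp90ab1, Hspa8, Actg1, Ptma, Nedd4 and Tubb5, of which Actg1, the cytoplasmic actin, was 1.89-fold and Ptma, prothymosin alpha, 2.60-fold higher than in Ca, while Hsp90ab1 and Nedd4 did not pass the test. The 10 highest genes took 6.45 to 7.69% of the reads in Ca and 4.29 to 4.33% in FLB.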

How the data were processed

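Stranded mRNA libraries were read from a single end, and the authors aligned the reads to mm10 with HISAT and counted genes with Cuffdiff. They deposited these values as CPM, and every column totals 1000000. The submitters' notes name FastQC 0.11.5, HISAT2 2.0.4, Cufflinks 2.1.1 and edgeR 3.16.2. The strand setting of the counting is not given in the sources used here. Every column belonged to 1 library, and groups were taken from the labels. Values of some list members are not reported here.

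A count test had been set in case counts were found. As the deposited CPM resolved into whole reads (within 0.1 read) for 99.1 to 99.2% of low values and not for all, count models were not used. CPM were scaled by an unweighted trimmed mean of log ratios (30% of log ratios and 5% of intensities) over 26 libraries, without a truncated hindlimb bud library. Genes that reached 1 CPM in 3 or more of the 6 libraries were tested on log2(scaled CPM + 0.5) with limma 3.58.1 (trend and robust) in R 4.3.3, 3 Ca against 3 FLB libraries, with Benjamini-Hochberg adjustment over 13308 genes. Calls needed an adjusted p under 0.05 and a 2-fold difference. Floors of 3 reads cover counting error only, since PCR reads without molecular identifiers are not independent molecules.

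The members of the comparison and the gene lists were chosen with earlier results of these data known. Genes named are Tbx5 and Nkx2-5, list members at the ends of their list or close to 0 or that define the tissue, the 15 largest differences each way among calls with 16 CPM or more in the higher tissue and no overlap, and the 10 highest genes of each tissue. Motif matches, the liver-type genes and the libraries that stand apart were looked at after values were seen. Exon lengths and overlaps are from GENCODE and positions and promoters from RefSeq, both on GRCm38, the assembly of mm10. The fit was also run on simulated reads, scored by an adjusted p under 0.05 without the 2-fold threshold. There 98 of 100 genes changed 2-fold and 100 of 100 changed 4-fold were found again. Of the 13287 genes that entered the test, 10 unchanged genes passed. The simulation left all other genes unchanged and gave every gene the same dispersion, unlike the real libraries, so it does not measure the reliability of the calls reported here. Tables and figures were made with Python 3.11.15, pandas 2.3.3 and matplotlib 3.10.9. Alternatives were other scalings, filters, pseudocounts and models, each library left out, the replicate number as a block and, chosen after seeing the data, voom on rounded reads.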

Additional observations from a re-analysis of the deposited data

How the results depend on the processing

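Counts over all genes stayed within 1.5 times of those reported under all 17 alternatives, and no gene was called in the opposite direction. Genes higher in Ca by 2-fold numbered 2312 to 2368 and lower 1193 to 1363 when each library was left out, 2136 and 1537 with CPM as deposited, and 2405 and 1202 with median-of-ratios scaling. Tbx5 and Nkx2-5 kept their direction and side of the adjusted p threshold in every setting. For 219 other named genes, 3574 of 3710 comparisons with an alternative kept direction and side of the adjusted p threshold of 0.05. Of the rest, 78 no longer passed it, 35 newly passed it and 23 changed sign. These counts leave out the 2-fold threshold, so a gene that only moved across 2-fold, as Tbx2 and Tpm2 did, is among those kept. Whether replicate numbers pair the samples was not settled. Deviations of same-numbered libraries correlated at only 0.052, 0.067 and 0.105, with 1 pair above 0.1. Each was nevertheless highest with its own number, and the best correlations with another number were -0.0097, -0.0031 and -0.050. The replicate block gave 2342 higher and 1279 lower. The edgeR and DESeq2 fits were not run, as the CPM did not wholly resolve into reads. The cause of the following changes was not tested, apart from those of the filter, which sets the genes tested. With CPM as deposited, ectodermal genes higher in Ca fell from 1 to 0, cell cycle genes lower rose from 0 to 1, and differences turned to -0.0085 for Col2a1, -0.049 for Eef1a1, -0.090 for Fgf9, -0.088 for Id3 and -0.10 for Notch1. With median-of-ratios scaling, cardiac factors lower were 1, and differences turned to 0.016 for Hand2, 0.024 for Nedd4 and 0.0033 for Rarb. With no filter, crest and neuron genes higher were 1 and liver-type genes higher 7. With a 5 CPM filter, hedgehog genes higher were 0, FGF genes higher 1, crest and neuron genes lower 1 and liver-type genes higher 1. Crest and neuron genes lower were 1 with a pseudocount of 1. With voom, chosen after seeing the data, macrophage genes lower were 1 and liver-type genes higher 1. With each library left out, cardiac factors lower ranged from 1 to 3, ectodermal genes higher from 0 to 1, crest and neuron genes lower from 1 to 2 and liver-type genes higher from 2 to 5. Differences then ranged from -0.0034 to 0.18 for Col2a1, -0.12 to 0.21 for Fgf9, -0.063 to 0.0070 for Hand2, -0.37 to 0.31 for Hoxb4, -0.064 to 0.11 for Id3, -0.024 to 0.0047 for Nedd4, -0.042 to 0.058 for Notch1, -0.13 to 0.0095 for Pbx3, -0.20 to 0.0034 for Rara and -0.10 to 0.088 for Rarb, none of which had passed the test. Depth limits values under the floor of 3 reads, and tissue and depth cannot be told apart.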

Other observations

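Guidance genes steer axons and growing vessels. Of 34 tested 4 were at least 2-fold higher in Ca (11.8%, against 17.6% of all genes tested) and 12 lower (35.3%, against 9.64%). Of 15 semaphorin and slit genes 4 were higher and 3 lower, and of 19 Eph receptors and ephrins 0 were higher and 9 lower, among them Epha4 with 29.1, 39.9 and 42.4 CPM in Ca and 171, 164 and 176 CPM in FLB (-2.20). The neuropilins, co-receptors of semaphorins, differed in direction, with Nrp1 at 237, 242 and 246 CPM in Ca and 82.3, 85.3 and 93.8 CPM in FLB and Nrp2 at 59.9, 64.9 and 83.5 and 311, 280.3 and 301 CPM. Sema3c, a semaphorin of the outflow tract, was higher in Ca (2.08) and Sema3f lower (-1.96).

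Of 16 imprinted genes 4 were at least 2-fold higher in Ca and 1 lower, 25% and 6.25% against 17.6% and 9.64% of all genes tested. Igf2r, which clears the growth factor Igf2, was at 1970.2, 1826 and 2036 CPM in Ca and 219, 204 and 219 CPM in FLB (3.18), and Plagl1, a zinc finger factor, was higher by 2.39. Peg10, a gene derived from a retrotransposon, went the other way with 264, 463 and 453 CPM in Ca and 1381, 1431 and 1411 CPM in FLB (-1.88).

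Of 7 tested skeletal regulators 0 were at least 2-fold higher in Ca (against 17.6% of all genes tested) and 4 lower (57.1%, against 9.64%). Sox9, the factor of cartilage precursors, was at 41.9, 35.5 and 41.7 CPM in Ca and 125, 119.8 and 142 CPM in FLB, and Scx, of tendon precursors, differed by -2.99. Runx2, of bone precursors, was at 0, 0.420 and 5.24 CPM in Ca, highest in replicate 3, and 16.5, 16.9 and 22.6 CPM in FLB, and its call was lost when any library but Ca replicate 3 was left out.

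Fos and Egr1, immediate early genes looked at after values were seen, were highest in replicate 1 of both tissues. Fos was at 30.8, 9.09 and 6.99 CPM in Ca and 8.66, 0.986 and 0.689 CPM in FLB, and Egr1 at 39.3, 20.4 and 18.6 and 6.79, 2.30 and 2.58 CPM.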
